A study of Komagataella pastoris with 12 samples.

Results

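The meiosis, sporulation and mating genes of the methylotrophic yeast *Komagataella phaffii* were described in 12 RNA-seq libraries. The members were the transcripts whose deposited description mentions meiosis, mating, sporulation, spores, pheromone or a silent mating-type locus (HML or HMR). The words found 49 of 5080 transcripts, namely 1 silent mating-type copy, 15 mating and pheromone response genes, 19 meiosis genes and 14 sporulation genes. Chromosome 1 held 21 members, chromosome 2 held 6, and chromosomes 3 and 4 held 11 each. The parent was a recombinant GS115 strain that expresses a lipase. G14 was a single isolate obtained from it by mutagenesis with atmospheric and room temperature plasma (ARTP) followed by stepwise adaptive evolution to heat, and it carried the same lipase. Both strains were grown in the rich medium YPD to the logarithmic phase at 30 or 37 °C, which gave the groups Parent_30, Parent_37, G14_30 and G14_37 with 3 biological replicates each. Because G14 was 1 clone, its values describe that isolate.

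In yeasts, haploid cells of opposite mating type find each other by secreted peptide pheromones. A pheromone binds a receptor on the partner cell, a heterotrimeric G protein passes the signal to a MAP kinase cascade, and transcription factors then switch on genes for cell fusion. The alpha2 protein is a homeodomain repressor that helps to set the alpha mating type. In *Saccharomyces cerevisiae*, spare copies of the mating-type genes are kept silent in chromatin until switching. Under starvation a diploid can enter meiosis, where kinases and an NDT80-type transcription factor drive recombination and division, and the products are wrapped in a spore wall that contains chitosan and glucan. Most of these roles were worked out in *Saccharomyces cerevisiae*, and the deposited descriptions carry them over by similarity. In *K. phaffii*, mating and sporulation are set off by nitrogen limitation, whereas YPD is a rich medium.

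Values were FPKM, fragments scaled to transcript length and to a total per library, so levels may be compared between genes. This total was smaller than the number of fragments on genes in every parent library and larger in every G14 library. For example, it was 12834300 against 14692042 in Parent_30 replicate 1 and 19601000 against 15448121 in G14_37 replicate 3. The scaling thus went with strain, and its origin was not tested. TPM scaling, an alternative given at the end, does not depend on this total. Each library held between 13428637 and 22047040 fragments on genes, and a member had 14 to 16261 fragments in a library (median 1013). A transcript was called raised or lowered at a Benjamini-Hochberg adjusted p under 0.05 and a log2 fold change of FPKM + 1 over 1 in size. The libraries differed in other ways. In Parent_37 the lowest FPKM of a library was 2.49 to 5.21, against 0 to 0.799 in the other 9 libraries, and the 1st percentile reached 12.1 (median of 3) and 12.4 FPKM (highest), against 5.52 to 8.37. G14_37 replicate 1 stood apart from its group, with a correlation of log values over all transcripts of 0.880 with replicate 2 and 0.863 with replicate 3, where replicates 2 and 3 had 0.959 with each other. Where leaving out this library or Parent_37 replicate 2 ended a call described for a named member, the value without it is given.

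All 49 members were detected in every group, mostly at low levels. The median of their group means was 30.0 and 45.1 FPKM in the parent at 30 and 37 °C and 39.8 and 49.0 FPKM in G14, where the median over all transcripts lay between 65.4 and 71.5 FPKM. The highest of the 4 group means was in Parent_37 for 24 members, in G14_37 for 18, in G14_30 for 5 and in Parent_30 for 2. The highest group mean was 1.17 to 28.1 times the lowest (median 2.19), and it was over 3 times the lowest in 20 members. These counts and ratios were not taken over all transcripts, so whether they are particular to the members was not tested. PAS_chr3_0763, a spore-specific water channel, had the highest level of all members, with a mean of 853 ± 43.4 FPKM (SD, n = 3) in Parent_30, and it was not called in any comparison. The members thus ranged from a gene among the more abundant transcripts to a meiotic kinase, PAS_chr1-1_0365, which ranked 5040 of 5080 by mean level.

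The silent copy moved most. PAS_chr4_0878, described as the silenced copy of ALPHA2 at HML, lies on chromosome 4 (positions 1648150 to 1648635, plus strand, 486 bases, coordinates as deposited). It was the only transcript whose description names a silent locus. The name silent copy is taken from that description alone, and whether the locus was silenced in these strains was not tested. Its FPKM in the 3 Parent_30 libraries was 22.1, 23.2 and 18.2. In Parent_37 it was 500, 715 and 570 FPKM. G14_30 had 81.8, 90.1 and 85.2 FPKM. In G14_37 it was 138, 154 and 164 FPKM. The groups did not overlap at any step, and the order from low to high was Parent_30, G14_30, G14_37 and Parent_37. The mean in Parent_37 was 28.1 times that in Parent_30 (log2 fold change 4.74, SE 0.14, adjusted p = 8.27e-09), which was rank 2 of 5080 by size of rise. At 30 °C the level in G14 was 4.05 times that in the parent (log2 1.97, SE 0.14, adjusted p = 3.13e-06). In G14 the step from 30 to 37 °C was 0.82 on the log2 scale (SE 0.14, adjusted p = 0.0048), below the fold threshold. At 37 °C it was 3.92 times lower in G14 than in the parent (log2 -1.95, adjusted p = 6.57e-07). The heat response was 3.92 log2 units smaller in G14 than in the parent (difference -3.92, SE 0.20, adjusted p = 1.2e-06). Fragments of an expressed copy of ALPHA2 with the same sequence could not be told apart from those of the silent copy, and cultures in which more cells express a gene cannot be told apart from cultures with more RNA per cell.

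**Figure D1:**
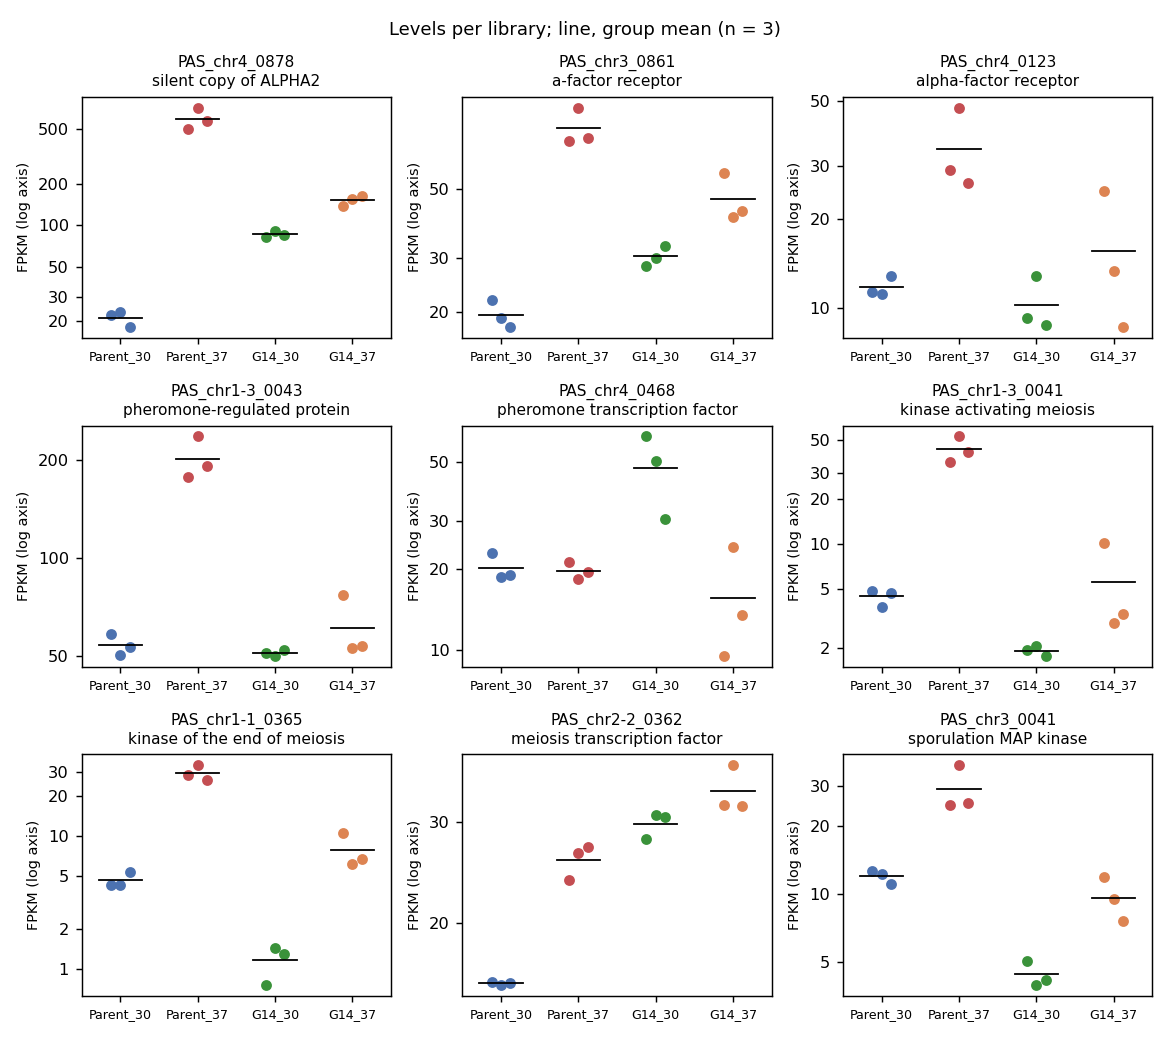
FPKM (log axis, a different range in each panel) of 9 members in each of the 12 libraries, grouped by strain and temperature, with a line at the group mean. The silent copy PAS_chr4_0878 runs from 18.2 to 23.2 FPKM in Parent_30 to 500 to 715 FPKM in Parent_37, while the transcription factor PAS_chr4_0468 is highest in G14_30 at 30.6 to 61.9 FPKM.

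The transcripts beside the silent copy were followed as a description, 5 on each side. The nearest on the right, PAS_chr4_1001, a hypothetical gene at 1649153 to 1649464, had a mean of 15.5 FPKM in Parent_30 and 125 in Parent_37, with 87.8 in G14_30 and 222 in G14_37. It was raised in the parent by heat (log2 2.92, SE 0.20), in G14 by heat (1.37, SE 0.20) and in G14 at 30 °C (2.39, SE 0.20). Thus it was highest in G14_37, where the silent copy was not. On the left, PAS_chr4_0873, a translational activator of the COX1 mRNA, had means of 137 and 434 FPKM in the parent at 30 and 37 °C and of 197 and 147 FPKM in G14, and it was raised in Parent_37 vs. Parent_30 and not called in G14_30 vs. Parent_30. PAS_chr4_0874, a signal peptidase subunit, had 118 FPKM in Parent_30, and 271, 427 and 290 FPKM in Parent_37, G14_30 and G14_37. PAS_chr4_0875 rose from 33.5 to 90.4 FPKM with heat in the parent and stood at 116 and 125 FPKM in G14 at 30 and 37 °C. PAS_chr4_0876 followed with 31.2 and 73.5 FPKM in the parent and 79.2 and 86.7 FPKM in G14. PAS_chr4_0874, PAS_chr4_0875 and PAS_chr4_0876 were raised in Parent_37 vs. Parent_30 and in G14_30 vs. Parent_30. PAS_chr4_0877, the direct left neighbour, reached log2 0.92 and 0.78 in these comparisons and was not called. On the far right, PAS_chr4_0879, PAS_chr4_0880, PAS_chr4_0881 and PAS_chr4_0883 were not called in the heat response of either strain or between the strains at 30 °C. From PAS_chr4_0873 to PAS_chr4_1001 the Parent_30 mean was thus the lowest of the 4, whereas at PAS_chr4_0879 the means were 157, 137, 151 and 151 FPKM.

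**Figure D2:**
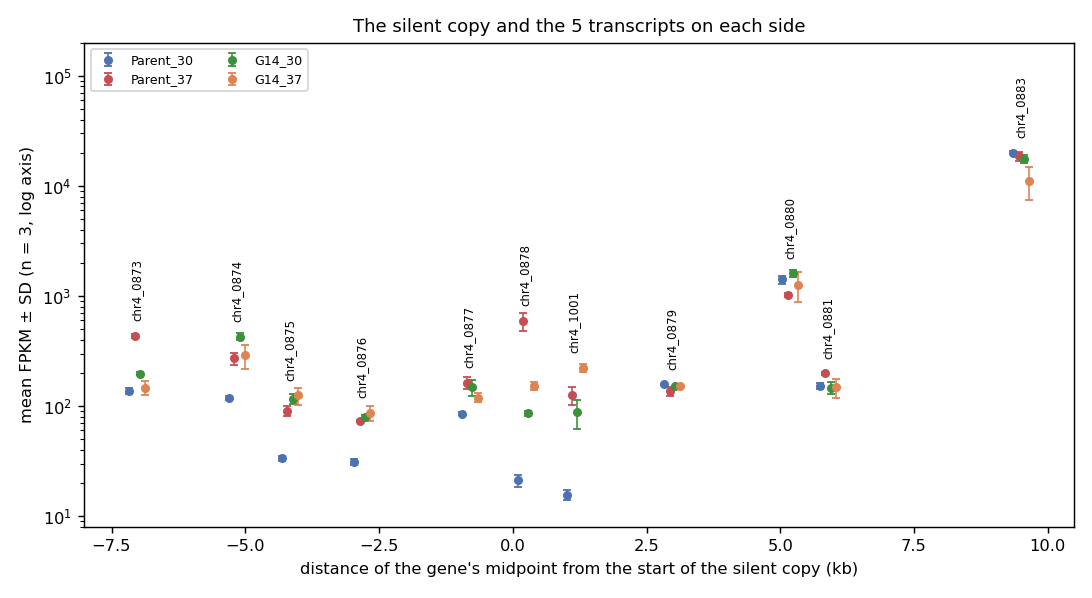
Mean FPKM ± SD (n = 3, log axis) of the silent copy PAS_chr4_0878 and of 5 transcripts on each side in the 4 groups, against distance from the start of the silent copy in kb, with the points of the groups set slightly apart. From PAS_chr4_0873 to PAS_chr4_1001 the Parent_30 means (15.5 to 137 FPKM) lie below those of the other groups, and from PAS_chr4_0879 rightwards this is no longer so.

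In comparison group Parent_37 vs. Parent_30, 16 of the 49 members were raised and 0 were lowered, where 14% of all transcripts were raised and 7.56% were lowered. By the adjusted p alone, 28 members were higher and 6 lower, against 32.9% and 27% of all transcripts. The median log2 fold change was 0.56 over the members and 0.04 over all transcripts. The raised members were the silent copy, 5 of 15 mating and pheromone genes, 7 of 19 meiosis genes and 3 of 14 sporulation genes. All 16 had their highest Parent_37 value in replicate 2. Over all transcripts raised in this comparison that share was 74.4%, and over all transcripts 36.3%. Without Parent_37 replicate 2, 12 of the 16 remained called and no other member was added. Members of every role were among those raised, and the size differed widely among them.

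The level of a member went with its call. Among members with a mean under 20 FPKM over the 12 libraries, 7 of 9 were raised in Parent_37 vs. Parent_30, where 61 of 239 other transcripts of that level were raised (25.5%). At 20 to 50 FPKM it was 6 of 21 members and 187 of 1440 others (13.0%). At 50 to 100 FPKM it was 2 of 11 and 173 of 1462 (11.8%), and at 100 FPKM and over it was 1 of 8 and 275 of 1890 (14.6%). So 13 of the 16 raised members had a mean under 50 FPKM. The 10th percentile of a library was 26.8 to 27.3 FPKM in Parent_37 and at most 24.6 in the other 9 libraries. When the 1st percentile of each library was subtracted first, an alternative chosen after the data had been seen, 16 members were raised, 15 of them the same. When the lowest value of each library was subtracted, 14 were raised, all of them among the 16.

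**Figure D3:**
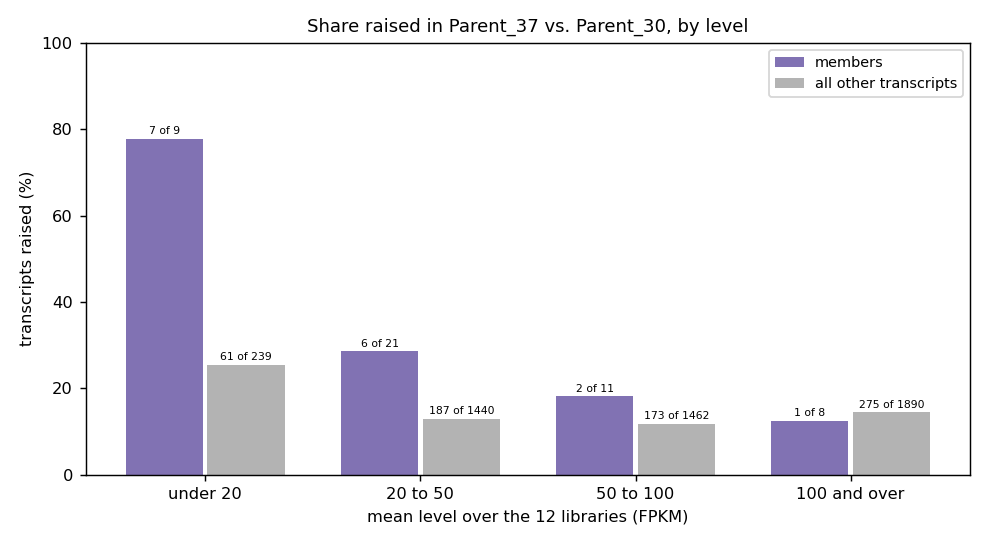
Share of transcripts raised in Parent_37 vs. Parent_30 (%), by mean level over the 12 libraries in FPKM, for the 49 members and for all other transcripts, with the counts above the bars. The members' share falls from 7 of 9 under 20 FPKM to 1 of 8 at 100 FPKM and over, where that of the others is 25.5% and 14.6%.

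Both pheromone receptors were raised by heat in the parent. PAS_chr3_0861, a receptor for a-factor that alpha cells use, had 21.8, 19.2 and 17.9 FPKM in Parent_30 and 70.9, 91.1 and 72.8 in Parent_37. It had 28.1, 30.0 and 32.7 FPKM in G14_30 and 56.1, 40.6 and 42.4 in G14_37. All 4 groups were apart from each other, in the same order as for the silent copy. The rise in the parent was 3.98-fold (log2 1.94, SE 0.14, adjusted p = 1.58e-06), and in G14 it was 0.59 on the log2 scale (SE 0.14), below the fold threshold. PAS_chr4_0123, the receptor for alpha-factor, had 11.3, 11.1 and 12.8 FPKM in Parent_30 and 29.3, 47.3 and 26.3 in Parent_37. In G14_30 it had 9.20, 12.8 and 8.73 FPKM, and in G14_37 it had 24.8, 13.3 and 8.62. Its rise in the parent was 2.92-fold (log2 1.43, SE 0.32, adjusted p = 0.00296). The G14 groups overlapped, since G14_37 replicate 1 was high and replicate 3 was the lowest of all libraries.

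Of the G protein behind the receptors, the alpha subunit was called in 1 comparison. The alpha subunit PAS_chr1-1_0096 had 20.3, 19.1 and 20.5 FPKM in Parent_30 and means of 38.9 ± 2.82 in Parent_37, 34.1 ± 1.73 in G14_30 and 62.1 ± 17.5 in G14_37 (SD, n = 3). Its log2 fold change was 0.92 in the parent and 0.81 in G14, and only G14_37 vs. Parent_30 passed the fold threshold (log2 1.55, SE 0.16, adjusted p = 3.46e-05; 1.35 without G14_37 replicate 1). The beta subunit PAS_chr1-1_0201 had 55.0 ± 2.12 FPKM in Parent_30 and 67.9 ± 7.59 in Parent_37, and it was not called in any comparison. PAS_chr3_0840, which speeds up GTP hydrolysis by the alpha subunit and so turns the signal down, had 16.2 ± 1.58 FPKM in Parent_30 and 23.6 to 24.7 FPKM as means of the other groups. These differences stayed under the fold threshold.

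Besides both receptors, 3 of the 15 mating genes were raised in the heated parent, and all 3 encode membrane proteins by their descriptions. PAS_chr1-3_0043 and PAS_chr1-3_0044 are adjacent on chromosome 1 (77297 to 80173 and 80453 to 83500, plus strand) and share a description as pheromone-regulated membrane proteins, so fragments could be split between them if their sequences are close. PAS_chr1-3_0043 had 58.6, 50.4 and 53.2 FPKM in Parent_30 and 177, 236 and 192 in Parent_37 (3.73-fold, log2 1.87, SE 0.15, adjusted p = 2.79e-06). In G14 it had 51.3, 50.1 and 52.1 FPKM at 30 °C and 77.0, 53.1 and 53.7 at 37 °C. Hence only the heated parent stood clearly above the rest. PAS_chr1-3_0044 went from 27.4 ± 1.21 to 96.6 ± 13.3 FPKM in the parent (3.52-fold, log2 1.77) and stayed at 36.7 ± 2.07 and 35.6 ± 6.21 FPKM in G14. PAS_chr1-1_0332, a membrane protein of cell fusion during mating, went from 24.0 ± 2.44 to 54.5 ± 10.1 FPKM in the parent (log2 1.14, SE 0.22), and the change was 0.999 on the log2 scale, under the threshold, without Parent_37 replicate 2. In G14 it was 17.7 ± 3.42 and 20.2 ± 6.80 FPKM.

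Of the members next to this pair, PAS_chr1-3_0045 was lower in the heated parent and PAS_chr1-3_0041 rose as the pair did. PAS_chr1-3_0045, an RNA-binding effector of the mating pathway, starts 313 bases after PAS_chr1-3_0044 and was lower in the heated parent, with 144 ± 2.65 FPKM at 30 °C and 85.0 ± 9.30 at 37 °C. Its log2 fold change of -0.76 (SE 0.09, adjusted p = 4.11e-05) passed the adjusted p and not the fold threshold. On the other side, PAS_chr1-3_0041, a meiotic kinase, lies 1669 bases from PAS_chr1-3_0043 on the minus strand and rose most among the meiosis genes. Of these 4 adjacent members, all but PAS_chr1-3_0045 were thus raised in the heated parent.

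The 5 further mating genes described here, which include kinases, a transcription factor and a membrane protein, were not called in the heated parent. PAS_chr1-4_0375, a kinase that opposes pheromone arrest when overexpressed, had 55.4 ± 3.94 FPKM in Parent_30 and 37.3 ± 4.35 in Parent_37, with 40.0 ± 3.83 in G14_30 and 60.6 ± 16.3 in G14_37. Its log2 fold changes with heat were -0.56 in the parent and 0.56 in G14, opposite in sign and under the fold threshold. PAS_chr2-1_0801, a kinase that inhibits pheromone signalling, had 69.3, 60.7, 80.8 and 106 FPKM as means of Parent_30, Parent_37, G14_30 and G14_37. The protein PAS_chr1-1_0348, with a role in mating and filamentous growth, had a log2 fold change of 0.46 in the parent, and the membrane protein PAS_chr1-4_0077 had 0.73. PAS_chr3_0968, a transcription factor of the MADS-box family of serum response factors that acts on cell-type-specific genes, was the most abundant mating gene, at 194 ± 3.42 FPKM in Parent_30 and 288 ± 46.4 in Parent_37 (log2 0.56). None of these 5 genes was called in a comparison of 2 groups.

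The transcription factor for the pheromone response, PAS_chr4_0468, was not called in the heated parent and was called in G14. It had 23.0, 18.7 and 19.0 FPKM in Parent_30 and 21.2, 18.3 and 19.6 in Parent_37, so that the parent groups overlapped. In G14_30 it had 30.6 to 61.9 FPKM, above every parent library, and in G14_37 it had 9.54, 24.0 and 13.5. It was raised in G14_30 vs. Parent_30 (2.35-fold, log2 1.14, SE 0.30, adjusted p = 0.016) and lowered in G14_37 vs. G14_30 (3.03 times lower, log2 -1.58, SE 0.30, adjusted p = 0.00736). The replicates of G14 differed among themselves, and each of these calls was lost under some alternatives. The rise was lost without Parent_30 replicate 2 and without G14_30 replicate 1 or 2 (lowest log2 0.93). It was also lost when the 1st percentile was subtracted (adjusted p = 0.085). The fall was lost in the fit of the compared groups alone (adjusted p = 0.079).

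Among the meiosis genes, 2 kinases had the lowest levels and the largest rises. PAS_chr1-3_0041, a serine/threonine kinase that activates meiosis (chromosome 1, 73492 to 75627), had 4.85, 3.77 and 4.69 FPKM in Parent_30 and 35.6, 53.0 and 41.5 in Parent_37. It had 1.92, 2.05 and 1.77 FPKM in G14_30 and 10.2, 2.93 and 3.39 in G14_37. The Parent_37 libraries lay far above all others, and G14_37 overlapped Parent_30. The rise in the parent was 9.77-fold (log2 3.02, SE 0.33, adjusted p = 2.31e-05). In G14 the heat response was 0.99 on the log2 scale (SE 0.33, adjusted p = 0.051), and G14_37 replicate 1 was the highest of the G14 libraries. PAS_chr1-1_0365, a kinase expressed at the end of meiosis (chromosome 1, 1239617 to 1240978), had 14 to 630 fragments in a library. It had 4.24, 4.28 and 5.34 FPKM in Parent_30 and 28.9, 33.9 and 26.4 in Parent_37. In G14_30 it had 0.756, 1.43 and 1.30 FPKM, and in G14_37 it had 10.5, 6.16 and 6.74. Here all 4 groups were apart, and heat raised the gene in both strains (6.44-fold and log2 2.45 in the parent, 6.72-fold and log2 2.01 in G14). Another kinase with the same description, PAS_chr1-1_0057, had 26.4 ± 2.54 and 26.7 ± 0.726 FPKM in the parent and was called nowhere.

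The other 5 raised meiosis genes were PAS_chr4_0124, PAS_chr2-1_0165, PAS_chr4_0560, PAS_chr1-4_0435 and PAS_chr4_0039. PAS_chr4_0124, an ATP-binding mismatch repair protein in a gene 882 bases from that of the alpha-factor receptor, had 17.6, 17.3 and 18.3 FPKM in Parent_30 and 55.3, 67.9 and 63.4 in Parent_37 (3.51-fold, log2 1.75, SE 0.16, adjusted p = 5.5e-06). In G14 it had 11.7 to 14.03 FPKM at 30 °C and 11.6, 16.8 and 18.9 at 37 °C. PAS_chr2-1_0165, which acts in mismatch repair and crossing over, went from 11.3 ± 2.63 to 34.9 ± 10.1 FPKM in the parent (log2 1.53) and had 14.8 ± 0.681 and 15.5 ± 1.29 FPKM in G14. PAS_chr4_0560, a meiosis-specific protein of spore wall formation, had 35.5, 35.2 and 31.0 FPKM in Parent_30 and 102, 113 and 110 in Parent_37 (log2 1.65, SE 0.12, adjusted p = 1.39e-06), and 45.3 to 61.3 FPKM in the 6 G14 libraries. A gene with the same description, PAS_chr1-4_0435, had a log2 fold change of 1.06, and PAS_chr4_0039, similar to phospholipase B, had 1.02. The last 2 lay just over the threshold and fell below it without Parent_37 replicate 2, at 0.92 and 0.89, and PAS_chr4_0039 also without Parent_30 replicate 2 or 3. Other members with such descriptions were not called, namely PAS_chr3_0550, described like PAS_chr4_0560 (log2 0.56), and the mismatch repair genes PAS_chr2-1_0094 (-0.07) and PAS_chr3_0739 (0.49). The raised genes PAS_chr2-1_0165, PAS_chr1-4_0435 and PAS_chr4_0039 and these 3 were named after their values had been seen.

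Other regulators of meiosis were not called in the heated parent. PAS_chr2-2_0362, a meiosis-specific transcription factor with an NDT80 domain label, had means of 15.7 ± 0.0926 and 25.8 ± 1.80 FPKM in the parent and 29.7 ± 1.55 and 33.9 ± 3.19 FPKM in G14. Its log2 fold change was 0.68 in the parent and 0.18 in G14. PAS_chr1-4_0473, an activator of the anaphase-promoting complex specific to meiosis, had 10.5 ± 0.917, 13.7 ± 1.24, 15.0 ± 2.06 and 23.0 ± 6.12 FPKM in the same order of groups. PAS_chr1-4_0179, which initiates meiotic recombination, had a log2 fold change of 0.60 in the parent (adjusted p = 0.00347) and levels of 29.4 to 45.1 FPKM as group means. PAS_chr4_0641, a cohesion protein of mitosis and meiosis, was lower in Parent_37, at 35.2 ± 3.66 against 56.5 ± 5.24 FPKM (log2 -0.67, adjusted p = 0.0422). PAS_chr1-1_0434, a zinc finger protein that controls meiosis, had 138, 94.5 and 62.7 FPKM in Parent_30 and 90.6, 128 and 111 in Parent_37, and the groups overlapped.

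Of the sporulation genes, 2 acetate transporters and a kinase were raised in the parent. PAS_chr2-1_0649, an acetate transporter needed for normal sporulation, had 14.3, 11.1 and 9.31 FPKM in Parent_30 and 42.7, 52.1 and 48.3 in Parent_37 (4.12-fold, log2 1.97, SE 0.15, adjusted p = 2.43e-06). It had 13.2, 12.9 and 12.5 FPKM in G14_30 and 26.3, 22.8 and 19.4 in G14_37. PAS_chr1-1_0418, with the same description and named after its values had been seen, went from 10.6 ± 1.91 to 28.7 ± 12.4 FPKM (log2 1.29, SE 0.38, adjusted p = 0.0131), and this call was lost without Parent_37 replicate 2 (log2 0.97, adjusted p = 0.062). PAS_chr3_0041, a MAP kinase of middle sporulation that is required for the outer spore wall, had 12.6, 12.3 and 11.0 FPKM in Parent_30 and 24.8, 37.2 and 25.4 in Parent_37, with 5.06, 3.96 and 4.17 in G14_30 and 11.8, 9.51 and 7.56 in G14_37. Its rise in the parent was 2.43-fold (log2 1.19, SE 0.19, adjusted p = 0.000273), and in G14 it was 0.96 on the log2 scale, just under the threshold.

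The spore wall enzymes named here did not pass the fold threshold with heat. The chitin deacetylase PAS_chr1-1_0103, which makes the chitosan of the ascospore wall, had 312, 319 and 295 FPKM in Parent_30 and 535, 697 and 508 in Parent_37 (log2 0.89, SE 0.23), and 304 ± 20.7 and 296 ± 106 in G14. The glucanases PAS_chr4_0692 and PAS_chr4_0048 had log2 fold changes of 0.69 and 0.83 in the parent. The sporulation-specific chitinase PAS_chr3_0107 had 46.7 ± 4.68 and 46.1 ± 0.971 FPKM in the parent and 66.4 ± 2.77 and 71.6 ± 8.10 in G14, and it was not called. PAS_chr4_0579, a sporulation-specific glucoamylase that degrades glycogen, had 247 FPKM in G14_37 replicate 1 and 20.7 and 28.9 FPKM in replicates 2 and 3. Its libraries of the other groups lay between 15.1 and 50.03 FPKM, and replicates 2 and 3 of G14_37 also lay above those of G14_30. Its log2 fold change of 1.64 in G14 (SE 0.69, adjusted p = 0.099) was not called. This gene was also named after its values had been seen.

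**Figure D4:**
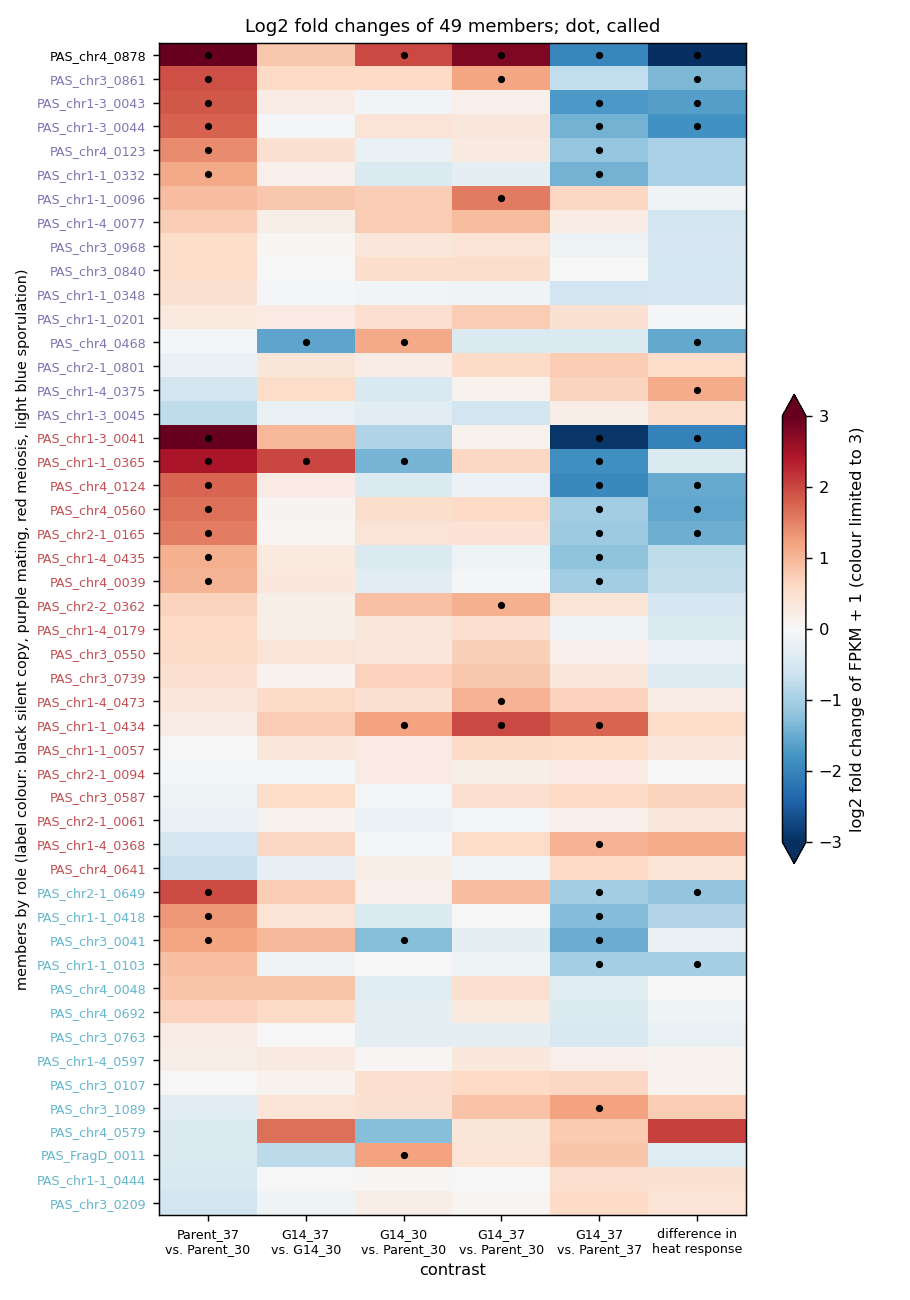
Log2 fold changes of FPKM + 1 of the 49 members (rows, ordered by role and by their change in the heated parent) in the 5 comparison groups and in the difference in heat response (columns), with a dot where the change was called. The first column has 16 dots, all of them rises, the second has 2, and the fifth has 16 falls and 3 rises.

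G14 gave few calls with heat. In comparison group G14_37 vs. G14_30, 1 member was raised and 1 was lowered, where 2.22% of all transcripts were raised and 1.56% were lowered. The raised member was the kinase PAS_chr1-1_0365 (log2 2.01, SE 0.21, adjusted p = 0.000506; 1.80 without G14_37 replicate 1), and the lowered member was the transcription factor PAS_chr4_0468. The median log2 fold change was 0.25 over the members and 0.00 over all transcripts, and 39 of 49 members lay above 0, as did 2563 of 5080 transcripts. At these thresholds the only member called raised by heat in both strains was PAS_chr1-1_0365, which is 1 of the 16 raised in the parent. PAS_chr1-3_0041 (log2 0.99, adjusted p = 0.051) and PAS_chr3_0041 (log2 0.96, adjusted p = 0.0078), also raised in the parent, came close in G14. The call of PAS_chr1-1_0365 in G14 was lost when the 1st percentile was subtracted (log2 0.55, adjusted p = 0.32), where the percentile was 5.52 to 8.37 FPKM in the 9 libraries outside Parent_37. Both calls of this comparison were kept without G14_37 replicate 1. The number of called members depended on the setting. It was 7 with TPM scaling, 7 without G14_37 replicate 3 and 1 in the fit of the compared groups alone.

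At 30 °C the strains differed in 6 members. In comparison group G14_30 vs. Parent_30, 4 members were raised and 2 were lowered, where 2.87% of all transcripts were raised and 4.49% were lowered. Raised were the silent copy, the transcription factor PAS_chr4_0468, the zinc finger protein PAS_chr1-1_0434 and the septin homolog PAS_FragD_0011. PAS_FragD_0011, a sporulation-specific relative of the septins of the bud neck, had 65.7, 70.8 and 74.2 FPKM in Parent_30 and 153, 162 and 172 in G14_30 (2.31-fold, log2 1.20, SE 0.13, adjusted p = 6.93e-05). At 37 °C it had 47.3 to 55.9 FPKM in the parent and 74.9 to 110 in G14, so the G14 libraries lay above the parent libraries at each temperature. PAS_chr1-1_0434 had 245, 268 and 157 FPKM in G14_30 (2.27-fold, log2 1.21, SE 0.31, adjusted p = 0.0143), and its call was lost without Parent_30 replicate 3, G14_30 replicate 1 or G14_30 replicate 2 (lowest log2 0.92). Lowered were the kinases PAS_chr1-1_0365 (3.98 times lower, log2 -1.39, SE 0.21, adjusted p = 0.000591) and PAS_chr3_0041 (2.72 times lower, log2 -1.27, SE 0.19, adjusted p = 0.000512). PAS_chr1-3_0041, the other kinase of low level, had a log2 fold change of -0.90 (adjusted p = 0.068). When the 1st percentile was subtracted, both G14_30 and Parent_30 levels of PAS_chr1-1_0365 came to 0 and its fall could no longer be seen.

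The heated G14 was also set against the unheated parent. In comparison group G14_37 vs. Parent_30, 6 members were raised and 0 were lowered, where 5.91% of all transcripts were raised and 7.01% were lowered. Raised were the silent copy (7.18-fold, log2 2.79), the alpha subunit PAS_chr1-1_0096 (3.11-fold), the a-factor receptor PAS_chr3_0861 (2.36-fold, log2 1.19), the zinc finger protein PAS_chr1-1_0434 (3.87-fold, log2 1.97, SE 0.31, adjusted p = 0.000477), the transcription factor PAS_chr2-2_0362 (2.16-fold, log2 1.06, SE 0.09, adjusted p = 9.48e-06) and the activator PAS_chr1-4_0473 (2.19-fold, log2 1.04). The last of these fell to log2 0.84 without G14_37 replicate 1 and lost its call without Parent_30 replicate 1, and PAS_chr2-2_0362 fell to 0.98 without G14_37 replicate 2. No member of the sporulation group was called here.

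At 37 °C many members were lower in G14. In comparison group G14_37 vs. Parent_37, 3 members were raised and 16 were lowered, where 7.42% of all transcripts were raised and 14.3% were lowered. This comparison shares its Parent_37 libraries with Parent_37 vs. Parent_30, so that the same values enter both. The largest fall was that of PAS_chr1-3_0041 (7.87 times lower, log2 -2.92, SE 0.33, adjusted p = 2.85e-05; -3.40 without G14_37 replicate 1). PAS_chr4_0124 was 3.95 times lower (log2 -1.94, SE 0.16), PAS_chr1-1_0365 was 3.82 times lower (log2 -1.83, SE 0.21) and PAS_chr1-3_0043 was 3.30 times lower (log2 -1.72, SE 0.15). The alpha-factor receptor PAS_chr4_0123 was lowered (log2 -1.16, SE 0.32, adjusted p = 0.00966), a call lost without Parent_37 replicate 2 (-0.91), without G14_37 replicate 3 (-0.83) and with TPM scaling. The a-factor receptor PAS_chr3_0861 had -0.75 (SE 0.14), under the fold threshold. By role, 1 of 1 silent copy, 4 of 15 mating genes, 7 of 19 meiosis genes and 4 of 14 sporulation genes were lowered. Raised were PAS_chr1-1_0434, at 461, 419 and 260 FPKM in G14_37 (3.46-fold, log2 1.75, SE 0.31), PAS_chr3_1089, a protein of the spore wall (2.39-fold, log2 1.21, SE 0.20; 0.99 without G14_37 replicate 2), and PAS_chr1-4_0368, a kinase for entry into meiosis. PAS_chr1-4_0368 had 281, 121 and 111 FPKM in G14_37 and 71.9, 88.4 and 65.9 in Parent_37, and its log2 fold change went from 1.05 to 0.63 without G14_37 replicate 1, and its call was also lost without Parent_37 replicate 3. Without Parent_37 replicate 2, 10 members were lowered.

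The heat response of the strains was compared directly. For the difference in heat response, G14 minus parent, 11 members were lower and 1 was higher, where 11.1% of all transcripts were lower and 4.31% were higher. The median difference was -0.37 log2 units over the members and 0.00 over all transcripts. After the silent copy, the largest differences were those of PAS_chr1-3_0041 (-2.02, SE 0.47, adjusted p = 0.00751; -2.50 without G14_37 replicate 1), PAS_chr1-3_0044 (-1.83, SE 0.19, adjusted p = 7.1e-05) and PAS_chr1-3_0043 (-1.64, SE 0.21, adjusted p = 0.000253). PAS_chr4_0560 (-1.57), PAS_chr4_0124 (-1.50), PAS_chr2-1_0165 (-1.47), PAS_chr3_0861 (-1.35) and PAS_chr2-1_0649 (-1.20) followed, with standard errors of 0.17 to 0.29. These members had risen in the parent and were closer to their 30 °C level in G14. PAS_chr4_0468 differed by -1.54 (SE 0.43, adjusted p = 0.0166) through its fall in G14. This call was lost when the 1st percentile was subtracted (adjusted p = 0.096). PAS_chr1-1_0103 differed by -1.004 (SE 0.33, adjusted p = 0.0367), at the threshold. The call of PAS_chr1-1_0103 was lost on leaving out any of 9 of the 12 libraries, among them Parent_37 replicate 2 (-0.86, adjusted p = 0.090) and G14_37 replicate 1 (-0.69). The only member with a called positive difference was the kinase PAS_chr1-4_0375 (1.12, SE 0.23, adjusted p = 0.00409), which came to 0.91 without G14_37 replicate 1. For PAS_chr1-1_0365 and PAS_chr3_0041 the differences were -0.44 (SE 0.30) and -0.23 (SE 0.27) and did not pass the test.

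**Figure D5:**
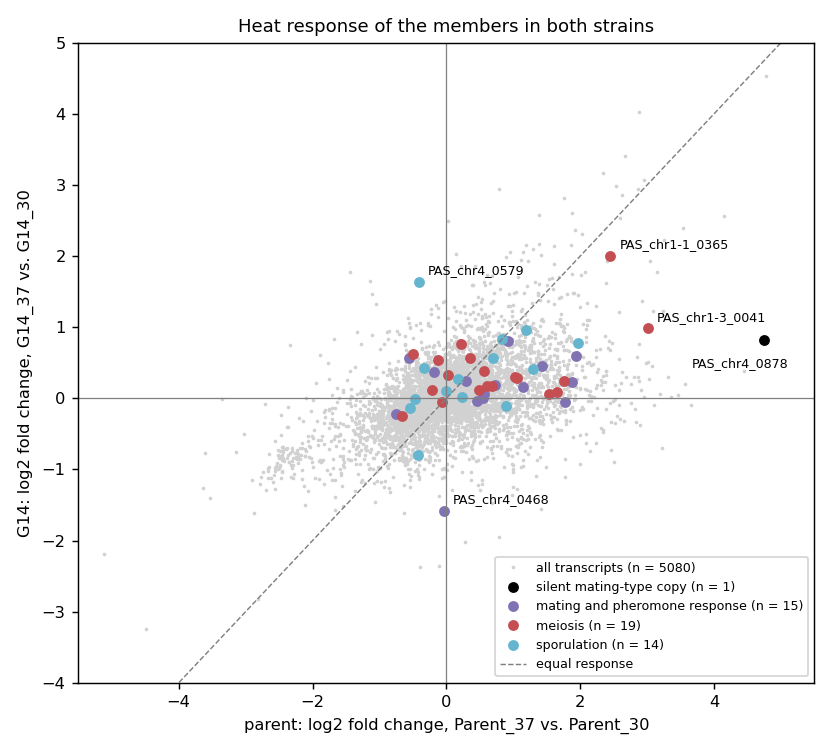
Log2 fold change with heat in G14 (G14_37 vs. G14_30) against that in the parent (Parent_37 vs. Parent_30) for the 49 members, coloured by role, over all 5080 transcripts in grey, with a dashed line at equal response. The silent copy lies at 4.74 and 0.82, far below the line, and PAS_chr1-1_0365 lies near it at 2.45 and 2.01.

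Genes of the surrounding pathways were listed by description and held no member. Their counts in Parent_37 vs. Parent_30 stand beside 14% raised and 7.56% lowered over all transcripts. Of 13 genes for silencing and telomeric chromatin, 2 were raised and 1 was lowered (15.4% and 7.69%, median log2 fold change 0.13). PAS_chr1-4_0315, a deacetylase of the Sir2 family, went from 61.4 to 493 FPKM in the parent (log2 2.98, adjusted p = 4.01e-08) and had 29.0 and 41.4 FPKM in G14 at 30 and 37 °C. PAS_chr4_0751, a subunit of the telomeric Ku complex, went from 24.2 to 58.9 FPKM in the parent (log2 1.22). PAS_chr1-4_0045, an RNA-binding protein found at subtelomeric DNA, fell from 152 to 67.8 FPKM. Genes with related descriptions did not rise with these. PAS_chr3_0329, also a Ku subunit, went from 25.6 to 16.5 FPKM in the parent (log2 -0.60), under the fold threshold. PAS_chr1-1_0374, a deacetylase of the sirtuin family, had 59.9 and 53.6 FPKM (log2 -0.16). In the MAP kinase list of 12 genes, 3 were raised and 1 was lowered (25% and 8.33%, median 0.40). Raised were PAS_chr3_0895, a MAP kinase (163 to 1534 FPKM in the parent, and 71.9 and 44.3 FPKM in G14), PAS_chr1-4_0271, a MAP kinase kinase of protein kinase C signalling (94.9 to 344 FPKM), and PAS_chr2-1_0203, a phosphatase that inactivates MAP kinases (30.7 to 135 FPKM). The descriptions of these 3 place none of them in the mating pathway. PAS_chr1-1_0105, a MAP kinase kinase of osmosensing, fell from 106 to 49.7 FPKM.

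Of 4 genes for cell fusion and pheromone handling, 1 was raised in the parent (25%). It was PAS_chr3_0858, a transporter for the export of a-factor, at 7.08 FPKM in Parent_30 and 19.1 in Parent_37. It had 18.6 FPKM in G14_30 and 21.6 in G14_37, so that the other 3 groups all lay above Parent_30. It was called in G14_30 vs. Parent_30 as well (log2 1.28). Another transporter described for a-factor export, PAS_chr2-1_0050, did not share this pattern. It had 41.4 and 41.3 FPKM in the parent at 30 and 37 °C and 25.55 and 22.98 FPKM in G14, and was not called. Of 5 genes for meiotic recombination and cohesion, 0 were raised and 0 were lowered, with a median of -0.06. Of 23 genes for starvation and meiotic entry signalling, 2 were raised and 2 were lowered (8.70% each, median -0.07), and the list also held small GTPases of vesicle traffic, which are not starvation genes. Raised were PAS_chr2-1_0490, a regulator of nitrogen catabolite repression, and PAS_chr2-1_0071, a putative protein kinase (log2 1.32). Lowered were PAS_chr2-2_0087, an ADP-ribosylation factor (log2 -1.21), and PAS_chr3_0586, a Rab escort protein (log2 -1.17). PAS_chr2-1_0490 had 3799 FPKM in Parent_30 and 11053 in Parent_37, against 813 and 571 FPKM in G14 at 30 and 37 °C. PAS_chr4_0626, an activator of nitrogen catabolite repression genes, was raised by heat in G14, from 9.50 to 46.1 FPKM (log2 1.86), and had 58.4 FPKM in Parent_37. The other genes with nitrogen catabolite repression in their descriptions went both ways in Parent_37 vs. Parent_30 and were not called. Their log2 fold changes were 0.77 for PAS_chr1-4_0395, -0.58 for PAS_chr2-1_0033, -0.60 for PAS_chr1-3_0126 and -0.36 for PAS_chr1-1_0157.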

How the data were processed

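Total RNA of the parent and G14 at 30 and 37 °C was sequenced by the authors as 150-bp paired ends from NEBNext Ultra libraries. The submitters' processing notes name CASAVA, HISAT2 2.0.5 and featureCounts 1.5.0-p3, and the reference was that of PICHIAGENOME. The strand setting of the counting is not given, so overlapping antisense transcripts cannot be told apart. The authors deposited FPKM values per transcript. FPKM times length was a whole multiple of 1 step in each library for 100% of values (tolerance 0.05 fragments), which gave the fragments per gene. A fragment on 1 kb equals 0.0417 to 0.0822 FPKM. A list of transcripts outside the annotation holds positions alone and was not used.

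Values were taken as log2(FPKM + 1), which understates changes of low genes. The limma 3.58.1 model in R 4.3.3 had 4 group means, a trend, and 12 libraries. P-values were adjusted over 5080 transcripts, all with a mean of at least 1 FPKM. The study's own tool was a count model, whereas the deposited unit was FPKM. That tool was not run on the recovered fragments, which entered the voom alternative. The fit was tested on simulated counts with known changes in Parent_37 and equal dispersion in every library. The simulation had neither the higher low values of Parent_37 nor a library that stood apart, so it does not bear on these features. Summaries used Python 3.11.15, numpy 2.4.6, pandas 2.3.3 and matplotlib 3.10.9. The members and lists were chosen with earlier results of these data known. Named by rule were the silent copy, all mating genes, the 3 largest called rises and falls of meiosis and sporulation genes per contrast, and the 2 highest and 2 lowest members (30 genes), and 5 more after their values had been seen. Members called in no comparison were named for their role, also after their values had been seen. Alternatives were another pseudocount, a filter at 10 FPKM, TPM scaling, subtraction of low values, voom on fragments, the compared groups alone, a replicate block and leaving out each library.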

Additional observations from a re-analysis of the deposited data

Results flagged for a closer look

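The heat response differed between the strains in 12 members, each by the test of the difference itself (limma, adjusted over all transcripts), where 11.1% of all transcripts were lower and 4.31% higher by the same rule. The log2 difference, G14 minus parent, was -3.92 for the silent copy PAS_chr4_0878. Among the mating genes it was -1.83 for PAS_chr1-3_0044, -1.64 for PAS_chr1-3_0043, -1.54 for PAS_chr4_0468, -1.35 for PAS_chr3_0861 and 1.12 for PAS_chr1-4_0375. Among the meiosis genes it was -2.02 for PAS_chr1-3_0041, -1.57 for PAS_chr4_0560, -1.50 for PAS_chr4_0124 and -1.47 for PAS_chr2-1_0165. Among the sporulation genes it was -1.20 for PAS_chr2-1_0649 and -1.004 for PAS_chr1-1_0103. Without G14_37 replicate 1, 10 of the 12 kept their call, and those lost were PAS_chr1-4_0375 (0.91) and PAS_chr1-1_0103 (-0.69). PAS_chr4_0468 lost its call when the 1st percentile was subtracted (adjusted p = 0.096). With 3 libraries per group, single libraries were not tested as outliers.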

How the results depend on the processing

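Of 61 called values of named members, 37 kept their call under every alternative, 24 lost it at least once, and 0 changed sign. With TPM scaling the median log2 fold change of all transcripts was 0.16 for heat in the parent, 0.22 for heat in G14, 0.15 for the strains at 30 °C, 0.39 for G14_37 vs. Parent_30, 0.34 for the strains at 37 °C and 0.10 for the difference in heat response. In Parent_37 vs. Parent_30 (16 raised, 0 lowered), subtracting the 1st percentile gave 1 lowered and the adjusted p alone gave 28 and 6. In G14_37 vs. G14_30 (1 and 1), TPM scaling gave 6 raised, a pseudocount of 0.1 gave 3, voom gave 2, the compared groups alone gave 0 lowered, the adjusted p alone gave 12 and 2, and leaving out a library gave 1 to 6 raised. The value was 6 without G14_37 replicate 3 and 3 on leaving out replicate 2 instead. In G14_30 vs. Parent_30 (4 and 2), subtracting the 1st percentile gave 1 lowered, the adjusted p alone gave 13 and 4, and leaving out a library gave 2 to 4 raised, with 2 without G14_30 replicate 1 or 2. In G14_37 vs. Parent_30 (6 and 0), TPM scaling gave 14 raised and the adjusted p alone gave 22 and 1. In G14_37 vs. Parent_37 (3 and 16), TPM scaling gave 5 raised and 9 lowered, subtracting the 1st percentile gave 8 raised, the adjusted p alone gave 15 raised, and leaving out a library gave 10 to 16 lowered. In the difference in heat response (1 and 11), 2 were raised after subtracting the lowest value, with TPM scaling, with voom and with a replicate block, 4 after subtracting the 1st percentile, 3 by the adjusted p alone, and 0 to 3 when a library was left out. The cause of these shifts was not tested. Samples of the same number correlated at -0.22 to 0.67 in their deviations from the group means. The highest values were 0.61 and 0.67, for replicates 1 and 3 in G14_30 vs. Parent_30. Samples of different numbers were not compared in this way, so whether the numbers pair the samples was not settled. The replicate block moved no other count beyond 1.5 times. The precision of the lowest members is limited by counts as low as 14 fragments.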
